A study of Mus musculus with 10 samples.

Results

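Haptoglobin, hemopexin, the pentraxins and the inter-alpha-inhibitor family are plasma proteins that the liver secretes, and 9 of their genes were followed here: *Hp*, *Hpx*, *Apcs*, *Crp*, *Itih1*, *Itih2*, *Itih3*, *Itih4* and *Ambp*. They were chosen by name, and every probe annotated to one of them was taken, which gave 16 probes for 9 of the 19057 genes on the array. Of these probes, 15 were above background on all 10 arrays and were tested. The remaining probe, the dimmer of the pair for *Crp*, was above background on 2 arrays, both CD, and was not tested.

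The mice carried a mixed 129S1/SvImJ;C57Bl/6J background, kept as 1 inbred strain, and the labels name no transgene. The WD SW group (n = 5 livers) ate a Western diet rich in fat and drank sugar water with fructose and glucose for 8 weeks. The CD group (n = 5 livers) ate chow and drank plain water for the same 8 weeks. The diets were started in male mice of 8 to 12 weeks of age. Whole liver RNA was hybridised to Illumina mouse bead arrays, which report the fluorescence of each probe, and values are given on the log2 scale after background correction and quantile normalization, so that 1 unit is a 2-fold difference within a probe. With 5 arrays per diet, the precision of each value is limited by their number.

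Haptoglobin binds hemoglobin that escapes from red cells, and the complex is taken up by macrophages through the receptor CD163. Hemopexin binds free heme, and the complex is taken up through LRP1. The short pentraxins, serum amyloid P component (*Apcs*) and C-reactive protein (*Crp*), are ring-shaped pattern recognition proteins that bind bacterial and damaged host surfaces and C1q. In mice serum amyloid P component is the pentraxin that responds strongly to inflammation, while C-reactive protein has that role in humans. Inter-alpha-inhibitors consist of heavy chains (*Itih1* to *Itih3*) joined through chondroitin sulfate to bikunin, and the heavy chains can be handed over to hyaluronan in the matrix. Bikunin and alpha-1-microglobulin are cut from the single precursor that *Ambp* encodes. *Itih4* encodes a related heavy chain that circulates without bikunin. Several of these genes are acute phase genes, which hepatocytes turn up under interleukin-6 and interleukin-1 through STAT3 and C/EBP factors.

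The arrays were not equally bright. The 95th percentile of the deposited signals was 870 to 1023 on the WD SW arrays and 403 to 921 on the CD arrays, and among the CD arrays only replicate 1, at 921, reached the WD SW range. The background was similar, at 78.0 to 87.4 on WD SW arrays and 82.0 to 88.1 on CD arrays. CD replicates 3 and 4, which share the number 13 in their titles, stood apart from the other CD arrays in acute phase genes, with *Saa1*, serum amyloid A, at 13.25 and 14.01 there and at 6.51 to 7.79 on the other 3 CD arrays. Each of the 9 genes is therefore given with and without those 2 arrays, and for other genes that value is given where leaving them out ended the call. All 10 hepatocyte markers were above background and tested, with 1 called higher and 3 lower on WD SW arrays. Of all probes, 17.3% were called higher and 14.1% lower. The lower calls included *Alb*, read by 1 dim probe.

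In WD SW livers *Hp* rose, *Apcs*, *Crp* and all 4 heavy chain genes fell, and *Hpx* and *Ambp* did not pass the test. Judged by the brightest probe of each gene, 1 of 9 genes was called higher and 6 were called lower (limma, Benjamini-Hochberg adjusted p under 0.05 over 17368 probes). Among all probes tested 31.3% were called, 17.3% higher and 14.1% lower. The median log2 fold change was -0.52 over the 9 genes and -0.01 over all probes. For 5 of the 9 genes (*Apcs*, *Crp*, *Itih1*, *Itih2* and *Itih4*) no WD SW array overlapped with a CD array, and all 5 were lower in WD SW, when 20.9% of all probes did not overlap, 11.5% higher and 9.38% lower. In the deposited signals, before normalization, the diets overlapped for each of these 5 genes. Over the 15 probes, 3 were called higher and 8 lower. In whole liver, fewer hepatocytes and less RNA per hepatocyte cannot be told apart.

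Array brightness differed along with the diets, and its part in these differences was not tested. With brightness as a covariate 0 of the 9 genes were called in either direction (limma; at an unadjusted p under 0.05, 2 higher and 0 lower), and 812 of all probes were. The standard errors were larger in that fit. The fold change of the brightest *Hp* probe was then 1.28 ± 0.45 (adjusted p = 0.118), and those of the 6 genes called lower ran from -0.64 ± 0.33 for *Itih3* to -0.27 ± 0.22 for *Itih2*. On the deposited signals without any normalization, *Hp* was called higher and *Itih3* lower (-0.71, adjusted p = 0.0145), while the other 5 genes ran from -0.83 for *Apcs* to -0.0054 for *Itih2* and were not called. CD replicate 1 matched the WD SW arrays in brightness, and in its deposited signals these 6 genes were each above all WD SW arrays. *Hp* and *Hpx* were below all of them. Of all probes, 26.8% were above all WD SW arrays on CD replicate 1 and 23.6% below. The genes were chosen with that array among the CD group, so this is a description of 1 array.

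**Figure D1:**
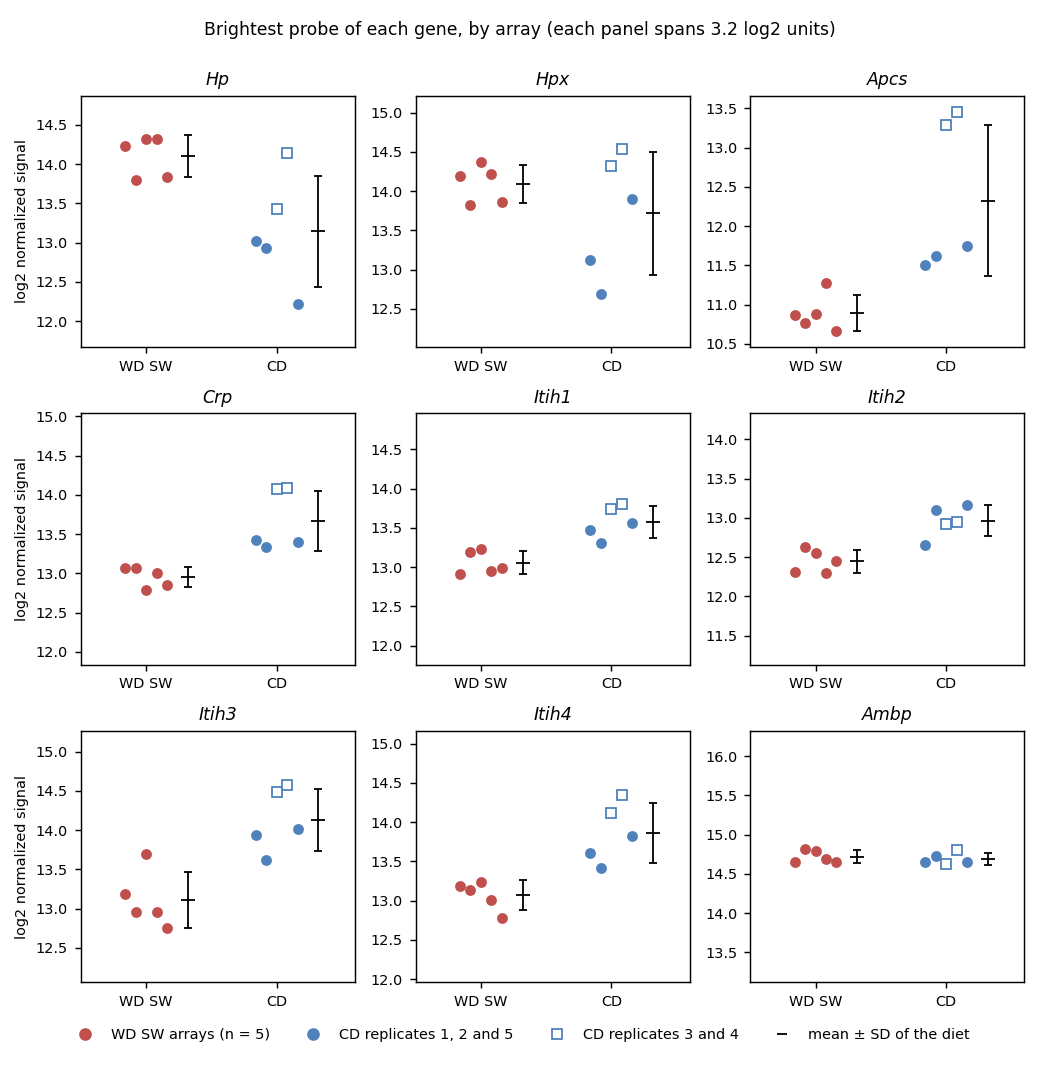
Normalized log2 signal of the brightest probe of each of the 9 genes, 1 point per array, WD SW left and CD right, with mean ± SD (n = 5 each) as black bars and CD replicates 3 and 4 as open squares. *Hp* sits between 13.80 and 14.32 on WD SW arrays, and *Apcs*, *Crp*, *Itih1*, *Itih2* and *Itih4* lie below every CD array.

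*Hp* was measured by 3 probes. The brightest gave 14.23, 13.80, 14.32, 14.32 and 13.83 on the WD SW arrays, against 13.02, 12.93, 13.43, 14.14 and 12.22 on the CD arrays. Every WD SW array lay above 4 of the 5 CD arrays, and CD replicate 4 alone reached into the WD SW range. The difference on the log2 scale was 0.95 ± 0.27 (SE; 1.94-fold; limma, adjusted p = 0.016). Without CD replicates 3 and 4 it was 1.38 ± 0.21 (adjusted p = 0.000798), and the diets no longer overlapped. Scaling by the median of detected probes gave 0.39, which did not pass (adjusted p = 0.267).

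The other *Hp* probes gave a larger difference. The middle probe read 11.99, 11.05, 12.44, 12.32 and 10.98 on the WD SW arrays, against 8.25, 8.16, 9.41, 9.89 and 7.45 on the CD arrays. The dimmest probe read 11.39, 10.39, 11.63, 11.38 and 10.58 on the WD SW arrays, against 7.84, 7.57, 8.31, 9.24 and 6.75 on the CD arrays. Neither probe overlapped between the diets. Their log2 fold changes were 3.12 ± 0.42 (8.72-fold) and 3.13 ± 0.37 (8.78-fold), with limma adjusted p of 0.000103 and 4.28e-05, and leaving out CD replicates 3 and 4 raised them to 3.80 and 3.69. Both kept their call with brightness as a covariate, at 3.81 and 3.54 (adjusted p = 0.00801 and 0.00773). In the deposited signals the middle probe averaged 4477 ± 1702 on WD SW arrays and 366 ± 157 on CD arrays (SD, n = 5 each).

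*Hpx* had 2 probes that differed in direction. The brighter gave 14.20, 13.82, 14.36, 14.21 and 13.86 on the WD SW arrays, against 13.13, 12.69, 14.32, 14.54 and 13.90 on the CD arrays. The CD arrays spanned the whole WD SW range, with replicates 1 and 2 below it and replicate 4 above it. The log2 fold change of 0.38 ± 0.29 did not pass the test (adjusted p = 0.353), but 0.85 ± 0.24 did once CD replicates 3 and 4 were left out (adjusted p = 0.0207). The dimmer probe gave 12.96, 12.81, 13.18, 13.13 and 12.54 on the WD SW arrays, against 12.85, 12.71, 14.13, 14.39 and 13.76 on the CD arrays. Its log2 fold change was -0.65 ± 0.29 (adjusted p = 0.0998), and -0.18 with CD replicates 3 and 4 left out (adjusted p = 0.603). On this probe CD replicates 1 and 2 lay inside the WD SW range and CD replicates 3, 4 and 5 above it.

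*Apcs*, the gene of serum amyloid P component, had 1 probe and fell. It gave 10.87, 10.76, 10.89, 11.28 and 10.67 on the WD SW arrays, against 11.51, 11.62, 13.29, 13.45 and 11.75 on the CD arrays. The CD arrays fell into 3 values near 11.6 and the pair of replicates 3 and 4 above 13, and all of them lay above the WD SW arrays. The log2 fold change was -1.43 ± 0.35 (2.70-fold lower; adjusted p = 0.00612) and it was -0.73 ± 0.17 once CD replicates 3 and 4 were left out (adjusted p = 0.0069). In the deposited signals the diets overlapped, at 2009 to 2997 on WD SW arrays and 2324 to 7978 on CD arrays.

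*Crp* also fell, by less. Its brighter probe gave 13.07, 13.07, 12.78, 13.002 and 12.85 on the WD SW arrays, against 13.42, 13.33, 14.08, 14.09 and 13.39 on the CD arrays. No WD SW array reached the lowest CD array, and the log2 fold change was -0.71 ± 0.18 (1.63-fold lower; adjusted p = 0.00705), and -0.43 ± 0.14 with CD replicates 3 and 4 left out (adjusted p = 0.0407).

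*Itih3*, a heavy chain, fell by each of its probes. The brighter probe gave 13.19, 12.95, 13.69, 12.96 and 12.75 on the WD SW arrays, against 13.94, 13.63, 14.49, 14.58 and 14.02 on the CD arrays. Only WD SW replicate 3 and CD replicate 2 crossed, and the log2 fold change was -1.02 ± 0.21 (2.03-fold lower; adjusted p = 0.00223), and -0.75 with CD replicates 3 and 4 left out (adjusted p = 0.0181). The dimmer probe gave 11.31, 10.90, 11.35, 10.79 and 10.70 on the WD SW arrays, against 12.29, 11.96, 13.21, 13.54 and 12.96 on the CD arrays. It did not overlap between the diets, and its log2 fold change was -1.78 ± 0.26 (3.44-fold lower; adjusted p = 0.000214), or -1.39 with CD replicates 3 and 4 left out (adjusted p = 0.0013).

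*Itih1* and *Itih2*, whose products form inter-alpha-inhibitor together with bikunin, differed by about the same amount. *Itih1* gave 12.91, 13.20, 13.24, 12.95 and 12.99 on the WD SW arrays, against 13.47, 13.31, 13.74, 13.80 and 13.56 on the CD arrays. *Itih2* gave 12.31, 12.63, 12.55, 12.29 and 12.45 on the WD SW arrays, against 12.66, 13.10, 12.93, 12.95 and 13.17 on the CD arrays. Neither overlapped, though the highest WD SW array and the lowest CD array lay close together for *Itih1* (13.24 and 13.31) and for *Itih2* (12.63 and 12.66). The log2 fold changes were -0.52 ± 0.14 for both (1.43-fold lower; adjusted p = 0.0114 and 0.0115). Without CD replicates 3 and 4, *Itih2* stayed at -0.53 (adjusted p = 0.032) and *Itih1*, at -0.39, did not pass (adjusted p = 0.0707). In the deposited signals *Itih2* averaged 6600 ± 837 on WD SW arrays and 6727 ± 1531 on CD arrays (SD, n = 5 each), and the log2 fold change on those signals had an adjusted p of 0.983.

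*Itih4* had 3 probes, of which the brighter pair fell. The brightest gave 13.18, 13.14, 13.24, 13.01 and 12.77 on the WD SW arrays, against 13.61, 13.41, 14.12, 14.35 and 13.82 on the CD arrays, without overlap. Its log2 fold change was -0.79 ± 0.18 (1.73-fold lower; adjusted p = 0.00419), and -0.54 with CD replicates 3 and 4 left out (adjusted p = 0.0273). The middle probe gave -0.85 ± 0.23 (adjusted p = 0.0108), and -0.50 without those arrays (adjusted p = 0.0721). The dimmest probe differed in sign, with 11.20, 10.32, 11.40, 11.69 and 10.91 on the WD SW arrays, against 10.34, 9.65, 10.38, 11.65 and 9.53 on the CD arrays. Its log2 fold change of 0.79 ± 0.35 did not pass (adjusted p = 0.0943), and without CD replicates 3 and 4 it was 1.26 ± 0.28 and did (adjusted p = 0.00642). The *Itih4* call is thus given for the brightest probe, not for all transcripts of the gene.

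*Ambp*, the bikunin and alpha-1-microglobulin precursor, was among the brightest probes of the liver, ranking 12 to 23 of 45281 on every array. It gave 14.64, 14.82, 14.80, 14.69 and 14.64 on the WD SW arrays, against 14.64, 14.73, 14.62, 14.81 and 14.64 on the CD arrays. The ranges were nearly the same, and the log2 fold change was 0.03 ± 0.12 (adjusted p = 0.872), or 0.05 with CD replicates 3 and 4 left out (adjusted p = 0.833). The deposited signals averaged 27568 ± 3134 on WD SW arrays and 25931 ± 3176 on CD arrays (SD, n = 5 each). Quantile normalization holds the values at such ranks close together, and scaling by the median of detected probes gave -0.85 (adjusted p = 0.00207), a scaling under which the median of all probes was -0.34.

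**Figure D2:**
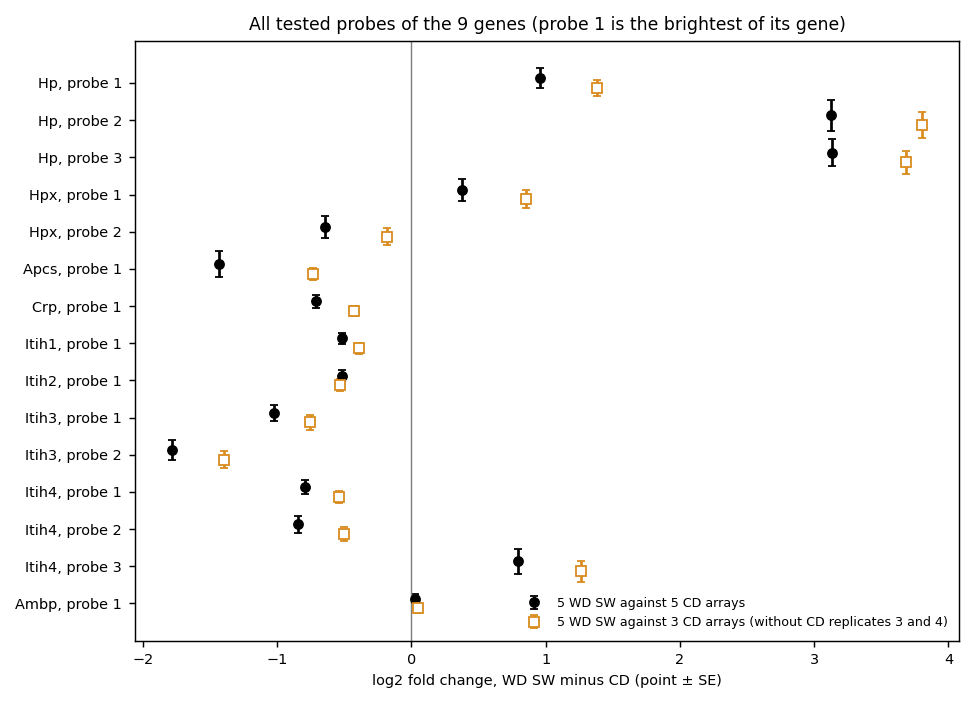
log2 fold change (WD SW minus CD) ± SE of all 15 tested probes, with all 5 CD arrays (black circles) and without CD replicates 3 and 4 (open orange squares). The *Hp* probes lie at 0.95, 3.12 and 3.13, and every probe except the one for *Itih2* moved upward when CD replicates 3 and 4 were left out.

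Probes of the same gene were compared directly, since the fold change depended on which was read. In 8 pairs of probes the difference between their fold changes was tested by exact permutation of the diets over the 10 arrays (two-sided, smallest possible p = 0.00794). The brightest *Hp* probe changed less than the others, with differences of -2.17 and -2.18 on the log2 scale (exact p = 0.00794, Benjamini-Hochberg adjusted 0.0127, both pairs), while those others differed from each other by -0.01 (exact p = 0.937). The *Hpx* probes differed by 1.02 and the *Itih3* probes by 0.76 (exact p = 0.00794 and adjusted 0.0127 each). The difference of the brightest *Itih4* probe from the dimmest was -1.58 (exact p = 0.0159, adjusted 0.0212) and that of the middle probe from the dimmest was -1.64 (exact p = 0.00794, adjusted 0.0127). The brighter pair of *Itih4* probes differed by 0.05 (exact p = 0.754). Across the 10 arrays the *Hp* probes ran together, with Pearson r of 0.92 to 0.99, whereas the dimmest *Itih4* probe ran with neither of its partners (r = -0.15 and 0.02). Which transcripts each probe reads was not analysed here.

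**Figure D3:**
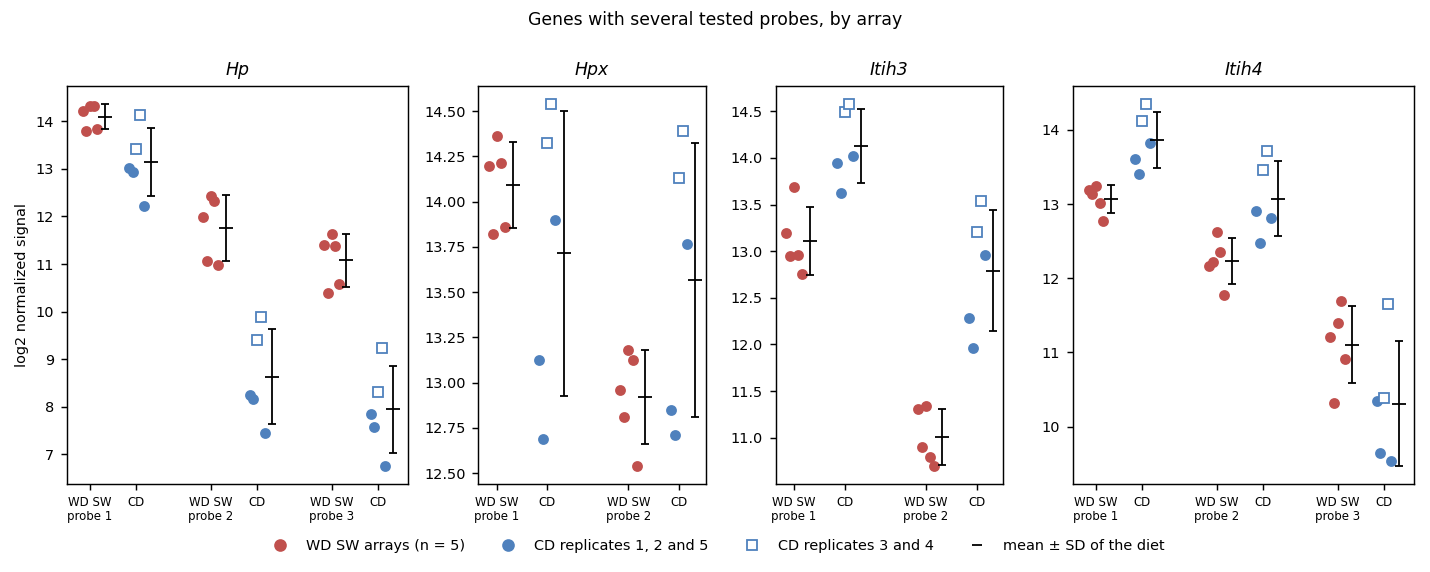
Normalized log2 signal by array for the 4 genes with several tested probes (*Hp*, *Hpx*, *Itih3*, *Itih4*), WD SW left of CD for each probe, with mean ± SD (n = 5 each) and CD replicates 3 and 4 as open squares. The lower *Hp* probes separate the diets by over 3 units and the brightest by 0.95, and the third *Itih4* probe averages 11.10 on WD SW arrays and 10.31 on CD arrays while the first averages 13.07 on WD SW arrays and 13.86 on CD arrays.

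The CD group itself was split for most of these genes. The mean of CD replicates 3 and 4 exceeded that of the other 3 CD arrays by 1.75 for *Apcs*, 1.19 for *Hpx* and 1.07 for *Hp*, on the log2 scale. It exceeded it by 0.70 for *Crp*, 0.67 for *Itih3*, 0.62 for *Itih4* and 0.32 for *Itih1*, and differed by -0.04 for *Itih2* and 0.04 for *Ambp*. A gap above 1 was seen for 3 of 9 genes, against 1.28% of all probes, and both arrays lay above the other 3 for 7 of 9 genes, against 13% of all probes. Among 20 other positive acute phase genes tested, 16 had a gap above 1, with *Lcn2*, lipocalin 2, at 7.08 and *Saa1* at 6.44. CD replicates 3 and 4 were set apart by acute phase genes, a kind that includes several of the 9 genes. These counts therefore only describe those arrays. Some markers of other cells moved with the split and others did so little. The neutrophil genes *S100a8* and *S100a9* were 2.01 and 2.14 higher on CD replicates 3 and 4. The other neutrophil markers, *Ltf*, *Elane* and *Csf3r*, differed by 0.44, 0.23 and -0.04. Among macrophage markers the gap was 4.28 for *Cd14*, 1.12 for *Vsig4*, 0.68 for *Lyz2* and 0.55 for *Adgre1*. It was 0.40 for *Clec4f*, 0.16 for *Timd4* and 0.14 for *Csf1r*. The summed signal of the 5 neutrophil markers tested was 474 and 732 there and 208 to 239 on the other CD arrays, and that of the 7 macrophage and Kupffer cell markers was 3586 and 3706 there and 1372 to 2429 on the others. The part of these cells in the split was not tested.

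The brightest probes are compared here with the mean of CD replicates 1, 2 and 5. *Hp* and *Hpx* were thus higher both on the WD SW arrays and on CD replicates 3 and 4, whereas *Apcs*, *Crp*, *Itih3* and *Itih4* were lower on the WD SW arrays and higher on CD replicates 3 and 4. *Itih1* had the signs of *Apcs*, at -0.53 to -0.21 on the WD SW arrays and 0.29 and 0.36 on CD replicates 3 and 4. Other probes differed. The dimmer *Hpx* probe averaged 12.92 on WD SW arrays and 13.11 on CD replicates 1, 2 and 5, and the dimmest *Itih4* probe 11.10 and 9.84. With CD replicates 3 and 4 left out, 2 genes were called higher (*Hp* and *Hpx*) and 5 lower (*Apcs*, *Crp*, *Itih2*, *Itih3* and *Itih4*), when 25.6% of all probes were called, 14.1% higher and 11.5% lower.

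**Figure D4:**
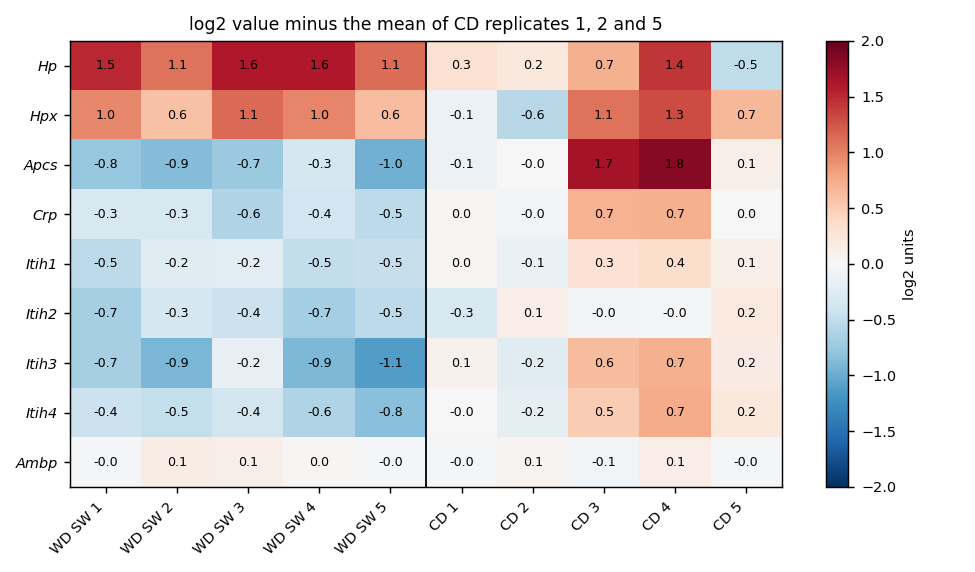
Brightest probe of each gene on each of the 10 arrays, as the log2 value minus the mean of CD replicates 1, 2 and 5 (colour and printed value), WD SW arrays left and CD arrays right. *Apcs* is lower on all WD SW arrays and 1.7 and 1.8 higher on CD replicates 3 and 4, while *Hp* is 1.1 to 1.6 higher on the WD SW arrays.

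Promoter sequences are shown for the genes whose upstream bases carry elements of the interleukin-6 response, to set them beside the split of the CD arrays. RefSeq windows (GRCm38.p6, from 250 bases before to 50 after the start of the gene) were available for 8 of the 9 genes. *Hp* had no window and was not searched. They were searched on both strands for the STAT element TTCNNNGAA, the interleukin-6 type 2 element CTGGGAA, the C/EBP element TTGCNNAA and the HNF1 element, which occur in 8.3%, 11.1%, 10.8% and 0.399% of 32851 windows. *Apcs* held a STAT element from -244 to -236 and 2 type 2 elements, from -129 to -123 and from -52 to -46. *Itih4* held a STAT element from -51 to -43, *Hpx* a C/EBP element from -200 to -193, and *Itih2* a C/EBP element from -33 to -26. The other 4 windows held none of these letters. The 250 bases upstream are given 5′ to 3′ on the strand of the gene, with the matches in capitals, for *Apcs* (chr1:172895055-172895304, minus strand), *Hpx* (chr7:105600117-105600366, minus strand), *Itih2* (chr2:10130684-10130933, minus strand) and *Itih4* (chr14:30886226-30886475, plus strand).
Apcs: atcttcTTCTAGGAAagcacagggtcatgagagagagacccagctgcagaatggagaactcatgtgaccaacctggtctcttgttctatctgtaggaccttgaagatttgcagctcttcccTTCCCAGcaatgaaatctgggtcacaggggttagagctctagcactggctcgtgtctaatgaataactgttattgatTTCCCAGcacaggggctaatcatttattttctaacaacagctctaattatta
Hpx: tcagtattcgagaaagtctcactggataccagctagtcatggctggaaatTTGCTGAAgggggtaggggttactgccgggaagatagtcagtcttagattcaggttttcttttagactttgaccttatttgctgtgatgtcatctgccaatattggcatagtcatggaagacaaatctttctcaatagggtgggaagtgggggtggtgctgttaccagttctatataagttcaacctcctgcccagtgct
Itih2: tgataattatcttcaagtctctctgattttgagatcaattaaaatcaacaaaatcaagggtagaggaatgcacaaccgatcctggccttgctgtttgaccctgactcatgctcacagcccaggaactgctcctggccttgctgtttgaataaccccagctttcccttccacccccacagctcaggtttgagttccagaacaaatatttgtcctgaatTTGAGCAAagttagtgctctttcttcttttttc
Itih4: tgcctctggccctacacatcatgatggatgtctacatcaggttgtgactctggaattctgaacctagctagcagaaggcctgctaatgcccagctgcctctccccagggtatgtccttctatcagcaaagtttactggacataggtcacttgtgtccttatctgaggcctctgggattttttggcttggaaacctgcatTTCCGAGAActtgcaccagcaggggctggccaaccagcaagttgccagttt
Of the genes with a match, the split in the CD group was 1.75 for *Apcs*, 1.19 for *Hpx*, 0.62 for *Itih4* and -0.04 for *Itih2*. Of those without, it was 0.70 for *Crp*, 0.67 for *Itih3*, 0.32 for *Itih1* and 0.04 for *Ambp*. A part of these elements in the split was not tested. A match is a description of letters, and occupancy of these elements was not measured.

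The uptake side of the haptoglobin and hemopexin systems was read in a list of 14 genes for hemoglobin and heme clearance. Of these, 4 were called higher and 6 lower on WD SW arrays (median log2 fold change -0.08). Over all probes 17.3% were called higher and 14.1% lower. *Cd163*, the haptoglobin-hemoglobin receptor, fell. It gave 5.68, 5.99, 5.62, 5.53 and 6.28 on the WD SW arrays, against 6.96, 7.77, 8.80, 8.51 and 7.45 on the CD arrays, without overlap. The log2 fold change was -2.08 ± 0.29 (adjusted p = 0.000152), and -1.58 without CD replicates 3 and 4. With brightness as a covariate it was -1.15 (adjusted p = 0.103).

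*Lrp1*, the hemopexin receptor, gave 7.19, 7.57, 7.72, 6.99 and 7.46 on the WD SW arrays, against 7.97, 7.93, 8.56, 8.60 and 8.40 on the CD arrays, and its log2 fold change was -0.90 ± 0.18 (adjusted p = 0.00201). The diets did not overlap, and with brightness as a covariate the value was -0.46 (adjusted p = 0.366). Of the heme-degrading enzymes, *Hmox1*, the inducible heme oxygenase, averaged 6.19 ± 0.49 on WD SW arrays and 5.65 ± 0.40 on CD arrays (SD, n = 5 each) and did not pass the test (adjusted p = 0.0998). The biliverdin reductase gene *Blvrb* rose by its brighter probe (0.97 ± 0.18, adjusted p = 0.00124), while its other probe gave -0.15, and with brightness as a covariate the brighter gave 0.49 (adjusted p = 0.311). *Trf*, the iron carrier transferrin, rose by 1.43 ± 0.23 (adjusted p = 0.000415). The 1 tested probe of *Alb*, albumin, gave -1.93 ± 0.22 (adjusted p = 3.6e-05), at a level of 7.17 on WD SW arrays and 9.09 on CD arrays. *Ambp* read 14.72 and 14.69 on the same arrays. The *Alb* call is thus given for 1 dim probe, not for all albumin transcripts.

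Hemoglobin genes, whose product haptoglobin binds, differed from gene to gene and from probe to probe. *Hba-a1* averaged 12.14 ± 0.20 on WD SW arrays and 11.23 ± 0.49 on CD arrays (SD, n = 5 each), a log2 fold change of 0.90 ± 0.21 (adjusted p = 0.00473). The brightest of 4 *Hbb-bt* probes gave 1.09 ± 0.20 (adjusted p = 0.00108), but the 4 probes ran from -0.76 to 1.54, and near-identical globin genes can share a probe. The brightest *Hbb-bs* probe gave 0.20 (adjusted p = 0.56) and *Hbb-b2* gave -0.16 (adjusted p = 0.518). Of 6 erythroid markers tested 2 were called higher and 1 lower (*Slc4a1*, -0.78, adjusted p = 0.0493, and -0.26 with CD replicates 3 and 4 left out, adjusted p = 0.303), *Alas2* gave -0.05 (adjusted p = 0.883), and the summed signal of the list was 16497 to 22061 on WD SW arrays and 9146 to 18222 on CD arrays. Of all probes, 17.3% were called higher and 14.1% lower. The part of blood left in the livers in the *Hp* difference was not tested.

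Of 11 ligands and receptors of the pentraxins tested, 6 were called higher and 1 lower (median log2 fold change 0.63), when 17.3% of all probes were called higher and 14.1% lower. With brightness as a covariate 2 of the 11 were called higher and 0 lower (limma; at an unadjusted p under 0.05, 5 higher and 0 lower). *C1qb*, a chain of the complement component that pentraxins bind, gave 8.30, 7.51, 8.75, 8.97 and 8.28 on the WD SW arrays, against 6.75, 6.82, 6.93, 6.99 and 5.89 on the CD arrays. The diets did not overlap, and the log2 fold change was 1.69 ± 0.26 (adjusted p = 0.000314). *C1qc* rose by 1.60 ± 0.33 (adjusted p = 0.00238), and *Fcgr3*, an Fc receptor through which pentraxins can act, by 1.04 ± 0.21 (adjusted p = 0.00178). *C4b* fell by 0.50 ± 0.14 by its brighter probe (adjusted p = 0.0121; -0.37 and adjusted p = 0.0674 with CD replicates 3 and 4 left out), and its other probe gave 0.46. C1q and Fc receptors are made by macrophages, and the summed signal of 7 macrophage and Kupffer cell markers was 2195 to 4653 on WD SW arrays and 1372 to 3706 on CD arrays, with 1 marker called higher (*Csf1r*, 0.91) and *Marco* and *Cd5l* not above background. Whether more macrophages account for these differences was not tested.

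On the hyaluronan side, which receives the heavy chains, 7 of 16 listed genes were tested and 1 was called higher, the endothelial hyaluronan receptor *Lyve1* (1.32 ± 0.35, limma, adjusted p = 0.0104). None was called lower, when 17.3% of all probes were called higher and 14.1% lower. With CD replicates 3 and 4 left out, 3 of the 7 were called higher and 0 lower, against 14.1% and 11.5% of all probes. *Has1* and *Has2*, which make hyaluronan, and *Ptx3*, a long pentraxin, were not above background.

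Of 16 regulators of the interleukin-6, interleukin-1 and C/EBP pathways, 4 were called higher and 5 lower (median log2 fold change -0.25). Over all probes 17.3% were called higher and 14.1% lower. *Socs3*, a feedback inhibitor induced by STAT3, gave 6.31, 6.21, 6.92, 7.08 and 6.00 on the WD SW arrays, against 6.78, 7.91, 9.62, 9.33 and 7.82 on the CD arrays. CD replicates 3 and 4 were the highest, and only CD replicate 1 reached the WD SW range. The log2 fold change was -1.79 ± 0.43 (adjusted p = 0.00612), -1.0002 without those 2 arrays (adjusted p = 0.0257) and -0.14 with brightness as a covariate (adjusted p = 0.905). *Il6ra*, the interleukin-6 receptor, fell by 1.25 ± 0.28 by its brighter probe (adjusted p = 0.0041), and its other probe gave -0.07. *Stat3* fell by 1.08 ± 0.22 by its brightest probe (adjusted p = 0.00183), and its other probes gave -1.26 and 0.21. *Il1rap*, the accessory chain of the interleukin-1 receptor, rose by 1.45 ± 0.24 by the brightest of 5 probes, which ran from 0.23 to 1.45 (adjusted p = 0.000461), and the kinase gene *Jak2* by 0.61 ± 0.14 (adjusted p = 0.00391). With brightness as a covariate none of the 16 genes was called (limma; at an unadjusted p under 0.05, 3 higher and 0 lower), with *Il6ra* at -0.18, *Stat3* at -0.75, *Il1rap* at 0.78 and *Jak2* at 0.41.

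**Figure D5:**
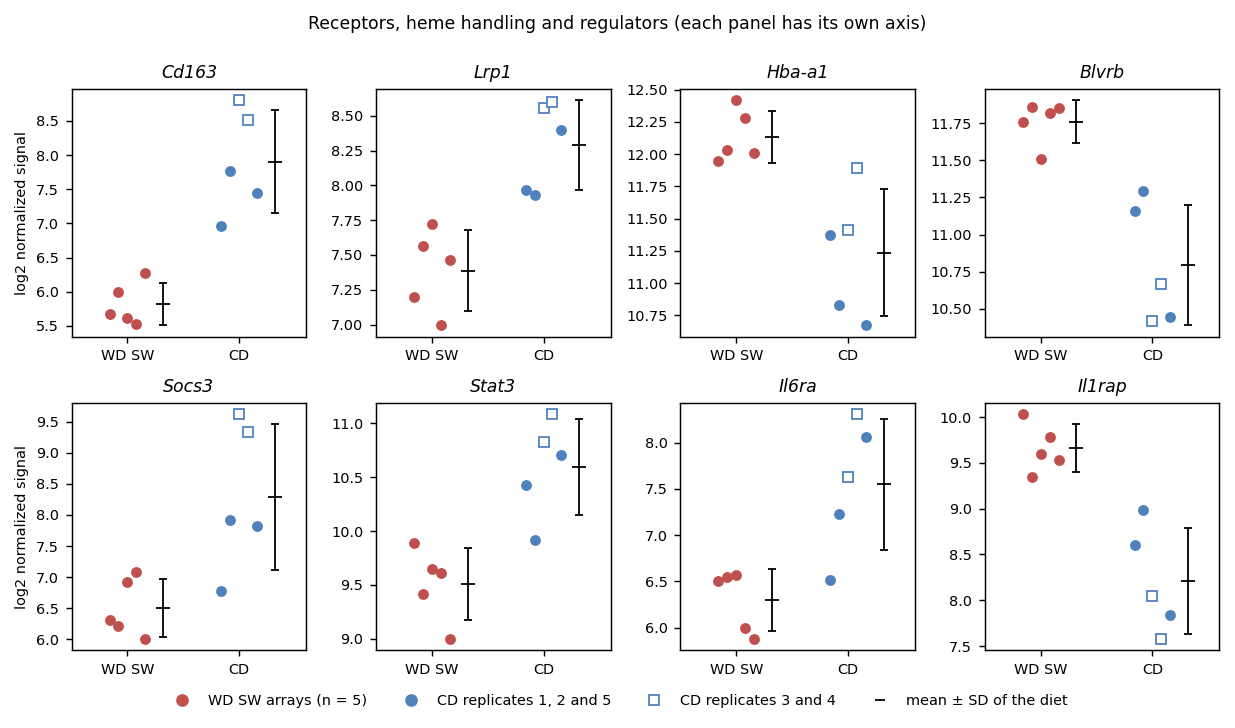
Normalized log2 signal by array for receptors, heme-handling genes, hemoglobin and cytokine-pathway regulators, WD SW left and CD right, with mean ± SD (n = 5 each) and CD replicates 3 and 4 as open squares. *Cd163* and *Lrp1* lie lower on every WD SW array than on any CD array, and *Socs3* is highest on CD replicates 3 and 4.

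Other acute phase genes set the listed genes in context. Of the 20 other positive acute phase genes tested, 0 were called higher, also at an unadjusted p under 0.05, and 6 lower. Without CD replicates 3 and 4, 6 were called higher and 5 lower (limma, median log2 fold change -0.68 and 0.28). Over all probes 17.3% were called higher and 14.1% lower with all arrays, and 14.1% and 11.5% without CD replicates 3 and 4. *Saa1* gave 10.55, 10.46, 11.33, 10.87 and 9.41 on the WD SW arrays, between the 2 sets of CD values given above, so that its log2 fold change of 0.75 ± 1.20 (adjusted p = 0.667) became 3.33 with CD replicates 3 and 4 left out (adjusted p = 0.000123). *Hp*, by contrast, was called in both comparisons. The metallothionein *Mt2* gave the largest lower call (-2.42 ± 0.72, adjusted p = 0.0191), which was lost without those arrays (-1.25, adjusted p = 0.126), and *Fgl1*, a hepatocyte-secreted fibrinogen-like protein, fell in both (-1.71 ± 0.35, adjusted p = 0.00218, and -1.14). Of 5 neutrophil markers tested, 0 were called higher by limma, also at an unadjusted p under 0.05. The 1 called lower, *Ltf*, was above background on 5 of 10 arrays. It read 4.78 to 4.89 on WD SW arrays and 5.15 to 6.25 on CD arrays, so its call is given as a description near background. The summed signal of the 5 markers was 173 to 265 on WD SW arrays and 208 to 732 on CD arrays. *Mpo*, *Camp* and *Ngp* were not above background.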

How the data were processed

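Liver RNA of 10 mice, 5 WD SW and 5 CD, was measured on Illumina arrays, and each array took its diet from the sample labels. The authors deposited 2 tables of linear probe intensity, one not normalized and one normalized by a method not given in the sources used here. The first was used, and the second was an alternative. It is not stated that the samples came from separate cages, so p-values here cover only the spread among these samples. Title numbers are shared by CD replicates 1 and 2 and by CD replicates 3 and 4. WD SW replicates 1 and 2, and WD SW replicates 3, 4 and 5, share numbers as well. What these numbers stand for is not stated. No pair of arrays agreed closely enough to be duplicates (highest correlation 0.988).

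Intensities were background corrected (normexp, offset 16), quantile normalized and log2 transformed with limma 3.58.1 in R 4.3.3. A probe was tested if it exceeded the mode of the array's signals at a one-sided p of 0.05 on at least 5 arrays. Diets were compared by limma on all 10 arrays, with Benjamini-Hochberg adjustment over all 17368 probes tested and a threshold of 0.05, and the brightest probe stood for a gene. Fold changes are WD SW minus CD. The fit was tested on simulated data. Quantile normalization gives every array the same distribution, so a shift of most probes one way would be hidden.

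Probe names came from the platform annotation, and 34885 of 45281 probes had 1 symbol. All 9 genes were named whatever their result, and from each gene list at most 2 higher and 2 lower calls of the largest size, or the brightest where none was called. *Lrp1*, *Hmox1*, *Stat3*, *Fcgr3*, *Saa1*, *Lcn2*, *Hbb-bs*, *Hbb-b2*, *Alas2*, *S100a8*, *S100a9* and the genes named as not above background fall outside this rule and were chosen after their values were seen. So were *Elane*, *Csf3r*, *Cd14*, *Vsig4*, *Lyz2*, *Adgre1*, *Clec4f* and *Timd4*. The genes and lists were chosen with earlier results of these data known. The alternatives changed the background correction, the normalization, the table used, the probe filter, the probe standing for a gene, the variance model, array weights, brightness as a covariate, a random block on the title number, and arrays left out. Scaling over all probes and the signals without normalization were added after seeing the data.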

Additional observations from a re-analysis of the deposited data

How the results depend on the processing

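No paired analysis was possible because the replicate numbers only name the arrays in the order of listing. Leaving out any single array kept the call of each of the 9 genes, and the cause of the changes given next was not tested unless stated. The count of probes called, 5444, was 8866 with scaling by the median of detected probes, 8424 with the median of all probes, 812 with the brightness covariate, and 3004 or 3001 with 1 value per gene, where fewer features were tested. Genes called higher were 0 under median scaling, 0 with the covariate and 2 without CD replicates 3 and 4. Genes called lower were 0 with the covariate, 1 on signals not normalized, 7 under median scaling, 5 for the mean of probes (*Itih4* lost, -0.28) and 4 with the median of all probes (*Itih1* and *Itih2* lost, -0.25 and -0.15). Of the calls, 20.4% were higher under median scaling, 55.1% after quantile normalization and 53.1% in the authors' values. The sign of *Hpx* turned under median scaling (-0.29) and for the mean of its probes (-0.13), and that of *Ambp* under median scaling (-0.85), in the authors' values (-0.23) and with the median of all probes (-0.0525). Without CD replicates 3 and 4, genes called higher were 1 under median scaling, 1 for the mean of probes and 0 with the covariate, and genes called lower were 2 with array weights, 1 with the median of all probes, 0 with the covariate and 0 on signals not normalized. Leaving out 1 more array there gave 1 to 2 genes higher and 1 to 4 lower.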

Other observations

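The genes whose brightest probe ran most closely with each of the 9 genes are given as a description, since the 10 arrays share their diet and brightness. For *Hp* they were *Ostc* and *Plscr1* (Pearson r = 0.97 each over 10 arrays), for *Hpx* *Cxcl9* and *Dst* (0.93 each), and for *Apcs* *Man2b2* (0.99) and *Cpne8* (0.98). For *Crp* they were *Tspan17* and *Zfp39* (0.97 each) and for *Itih2* *Adhfe1* (0.99) and *Mrgpra2b* (0.97). *Gpatch4* was among the nearest for *Itih1* (0.98), *Itih3* (0.97) and *Itih4* (0.98), beside *Eef1g* for the first and second of these (0.98 and 0.97) and *Serpina10* for *Itih4* (0.98). For *Ambp* the nearest were *Dusp22* and *Gask1b* (0.88 each).

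Negative acute phase plasma proteins usually fall in inflammation. When 17.3% of all probes were called higher and 14.1% lower, 2 of the 11 tested were called higher and 3 lower. Besides *Trf* and *Alb* these included *Serpina7*, thyroxine-binding globulin, which rose by 0.72 ± 0.23 on the log2 scale (limma, adjusted p = 0.0282), with its other probe at 0.05, and *Ahsg*, fetuin-A, which fell by 0.87 ± 0.15 (adjusted p = 0.00062), with its other probe at 1.04. Among the hepatocyte markers *Apob*, the core protein of lipoproteins, rose by 1.46 ± 0.20 (adjusted p = 0.000128) and *Pck1*, of gluconeogenesis, fell by 1.34 ± 0.37 (adjusted p = 0.0139), a call lost without CD replicates 3 and 4 (-0.82, adjusted p = 0.0969).

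Markers of other liver cells gave 4 of 7 stellate genes higher (*Col1a1* 0.64, *Col3a1* 0.60) and none lower, 1 of 7 endothelial genes higher (*Lyve1*) and 1 lower (*Kdr*, -0.50), 1 of 1 biliary gene lower (*Sox9*, -2.09, with its other probe at -0.37) with *Krt19*, *Krt7* and *Epcam* not above background, and 0 of 2 lymphocyte genes called (limma; unadjusted p under 0.05 for both, and *Ptprc*, the brighter, at 0.35). Over all probes 17.3% were called higher and 14.1% lower. Without CD replicates 3 and 4 the calls of *Col1a1* (adjusted p = 0.0705) and *Kdr* (adjusted p = 0.0765) were lost. The neutrophil call was *Ltf* (-0.81, adjusted p = 0.00299).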
